A study of Mus musculus with 8 samples.

Results

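The elastic fibre and lysyl oxidase genes described here are 10 named genes, taken by symbol from the 55359 genes of a count table of MLO-Y4 cells, a mouse line with features of osteocytes. They comprise elastin (Eln), the fibrillins Fbn1 and Fbn2, the fibulins Fbln5 and Efemp2 (fibulin-4), and the lysyl oxidases Lox and Loxl1 to Loxl4. The study asked how gene expression changes in these wild type cells after Er:YAG laser exposure, a pulsed infrared laser of 2940 nm. RNA-seq of poly(A) RNA compared 4 libraries of non-irradiated cells (C5 to C8) with 4 of cells (L5 to L8) given 6 J/cm2 over 1 min from 25 cm with the medium taken off. All come from 1 cell line. Both groups grew on collagen type I of rat tail in medium with 5% fetal bovine and 5% calf serum, and had been seeded 72 h before the exposure in 35-mm dishes. RNA was taken 6 h after irradiation. The labels do not say whether the libraries of a group came from separate cultures, so p-values measure the spread between these libraries, which may be technical.

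An elastic fibre has a core of crosslinked elastin laid down on a scaffold of fibrillin microfibrils. Fibulin-4 and fibulin-5 bring tropoelastin and lysyl oxidase together on that scaffold. Lysyl oxidases are copper-dependent enzymes that oxidize lysine side chains of elastin and collagens, which then react to form the crosslinks that make both fibres insoluble. In bone the same enzymes crosslink collagen I, and fibrillin microfibrils hold latent forms of TGF-beta.

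Library totals ran from 43786209 to 51734166 counts and 15164 genes passed a filter on low counts, 9 of the 10 members among them. Fbn2 (ENSMUSG00000024598.10), the fibrillin prominent in developing tissues, had 0 counts in all 8 libraries. That allows a level of up to 0.0685 CPM (counts scaled to library size) in the smallest library, or 0.274 CPM if 1 fragment adds 4 counts, since low counts varied about 4 times as much between replicates as single reads would. These limits cover counting error only. Of the defining osteocyte markers Sost, Mepe and Fgf23 were at 0 in all libraries. Dmp1 did not pass the filter, with means of 0.108 CPM in C5 to C8 and 0.327 CPM in L5 to L8. The summed level of the 7 osteocyte markers, mainly Pdpn and Gja1, ranged over 739 to 765 CPM in C5 to C8 and over 927 to 961 CPM in L5 to L8. Smooth muscle markers, from a cell type known for making elastin, summed to 2.48 to 3.18 against 1.96 to 4.11 CPM with 0 of 5 at 0 in all libraries. Most of that sum was Tagln, with means of 2.3 and 2.41 CPM in non-irradiated and irradiated cells. Myh11, Acta2 and Des did not pass the filter, and Cnn1 averaged 0.132 and 0.247 CPM. Endothelial markers summed to at most 0.428 CPM with Cdh5 and Kdr at 0. Of the macrophage markers Ptprc and Adgre1 were at 0 and the sum went from between 17.2 and 20.9 to between 28.1 and 31.3 CPM. Of the other macrophage markers Csf1r went from 14.2 to 26.2 CPM and Cd68 the other way, from 4.45 to 3.52 CPM with no overlap of the groups (log2 fold change -0.34, edgeR adjusted p = 0.193). Chondrocyte markers, with Acan at 0, went from between 139 and 143 to between 209 and 227 CPM, carried by Sox9. The adipocyte sum was at most 0.712 CPM with Adipoq at 0, and all 3 epithelial markers were at 0. The part of these shifts in the results was not tested, and in bulk RNA fewer cells of a type and less RNA per cell cannot be told apart.

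RefSeq promoter sequences of the build GRCm38.p6 were at hand for 4 of the 10 members with 7 start sites in all. Those of Fbn1 and Loxl4, which rose, and of Efemp2, which fell (the most upstream of its 3 starts), are shown because these genes changed in the comparison described further on. Each runs 5′ to 3′ on the gene's strand over the 250 bases before the start, at chr2:125506439-125506688 (minus strand), chr19:42612807-42613056 (minus strand) and chr19:5473696-5473945 (plus strand). Capitals mark GC boxes (GGGCGG on either strand), the motif of SP family factors.
Fbn1: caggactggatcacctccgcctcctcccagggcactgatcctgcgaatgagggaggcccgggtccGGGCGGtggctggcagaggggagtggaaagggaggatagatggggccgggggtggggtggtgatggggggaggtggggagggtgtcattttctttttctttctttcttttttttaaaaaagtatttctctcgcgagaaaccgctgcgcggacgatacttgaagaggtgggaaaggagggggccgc
Loxl4: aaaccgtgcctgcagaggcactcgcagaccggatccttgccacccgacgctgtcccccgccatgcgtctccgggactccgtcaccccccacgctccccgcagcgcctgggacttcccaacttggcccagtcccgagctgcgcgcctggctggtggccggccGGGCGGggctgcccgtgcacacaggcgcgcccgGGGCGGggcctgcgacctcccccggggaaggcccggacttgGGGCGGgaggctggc
Efemp2: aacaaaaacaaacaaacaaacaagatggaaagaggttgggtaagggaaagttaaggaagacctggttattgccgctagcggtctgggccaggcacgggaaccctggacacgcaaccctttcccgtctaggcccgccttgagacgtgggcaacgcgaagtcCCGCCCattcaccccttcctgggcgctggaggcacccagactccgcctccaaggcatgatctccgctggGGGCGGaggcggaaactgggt

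The Fbn1 window holds 1 GC box, the Loxl4 window 3 and the Efemp2 window 2. A GC box is found in 32.7% of 32851 promoter windows of that length in the RefSeq table. None of the 3 windows, nor those at the other starts of Efemp2 and Fbln5, holds an AP-1 site (TGANTCA, in 6.75% of windows), an EGR site (GCGNGGGCG, in 4.7%) or a TEAD site (GGAATG, in 12.6%), searched on both strands; an EGR site and a GC box can share bases. The windows at the other 2 starts of Efemp2 overlap and hold the same 5 GC boxes, some of which share bases. Those of the 2 Fbln5 starts hold 0 and 2. A match or its lack describes these letters alone.

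Expression levels of the members differed by more than 3 orders of magnitude, with Lox far above the rest. On a scale per length (TPM: counts divided by the summed exon length of the gene, rescaled to the same total in every library), the level of Lox in non-irradiated cells was 1842 ± 31.3 (SD, n = 4). Loxl3 followed with 358 ± 10.4 TPM, Efemp2 with 295 ± 6.13 TPM and Fbn1 with 109 ± 4.56 TPM. Loxl1 (25.1 ± 3.26 TPM) and Loxl4 (21.8 ± 1.65 TPM) were the only neighbours in the order whose libraries overlapped in that group. Below them came Loxl2 at 16.3 ± 1.12 TPM, Fbln5 at 3.35 ± 0.146 TPM and Eln at 0.791 ± 0.311 TPM. Lox RNA was thus abundant and elastin RNA scarce, with 79.7% of tested genes above Eln in mean CPM. The order was the same in irradiated cells, where no neighbours overlapped. Only Loxl3 and Efemp2 changed places when the longest transcript (312 and 329 TPM) or the coding length (258 and 285 TPM) was used instead. The levels themselves depend on that length. With the coding length Fbn1 stood at 54.0 TPM, Loxl1 at 16.1, Loxl4 at 14.3 and Fbln5 at 5.91 TPM, and with the longest transcript Eln stood at 1.29 TPM.

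**Figure D1:**
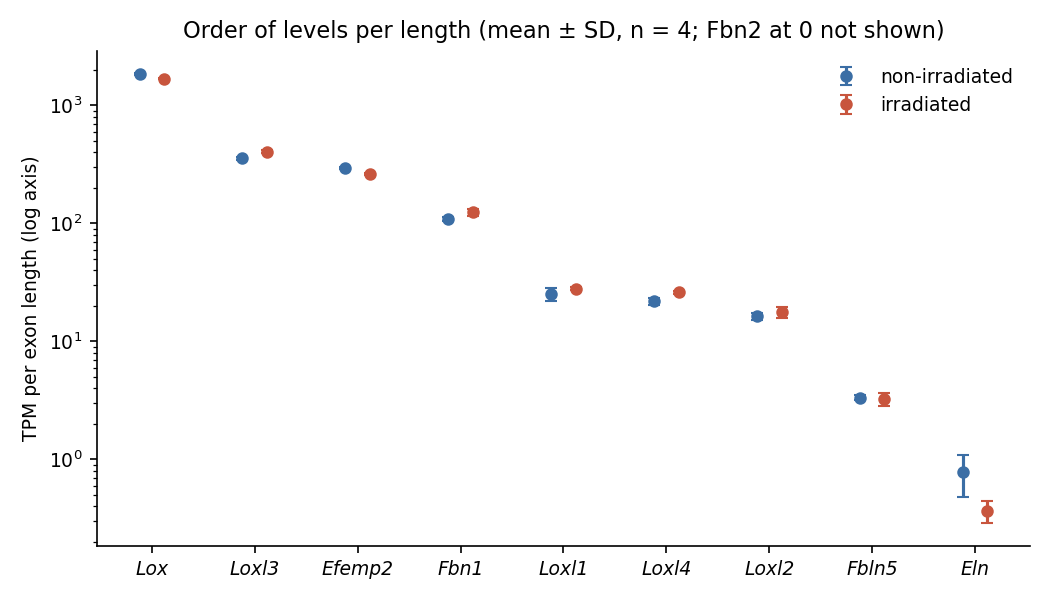
Level per length of the 9 detected members (TPM, log axis) in non-irradiated (blue) and irradiated (red) cells; points are means and bars the SD over 4 libraries. Lox stands highest at 1842 and 1687 TPM and Eln lowest at 0.791 and 0.368 TPM, with the same order in both groups.

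After irradiation 3 of the 9 tested members rose (Fbn1, Loxl3 and Loxl4), 3 fell (Eln, Efemp2 and Lox) and 3 did not pass the test (Fbln5, Loxl1 and Loxl2), by edgeR's quasi-likelihood test with a Benjamini-Hochberg adjusted p under 0.05. Of all tested genes 15% were called, 8.22% higher and 6.75% lower, and among 9568 genes averaging 10 CPM or more, a level that every tested member but Eln and Fbln5 reached, 21.7% were called. The groups did not overlap in 6 of the 9 tested members, against 18.5% of all tested genes. Those 6 are the called members, and both measures rest on the same values. The median log2 fold change was 0.11 over the 9 members and -0.0065 over all tested genes. Called genes were found among the fibrillins, the fibulins and the enzymes, and for Eln, the elastin core, the call was lost in 5 of 17 alternatives. Apart from Eln, no called member changed by more than the 19% of Loxl4.

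**Figure D2:**
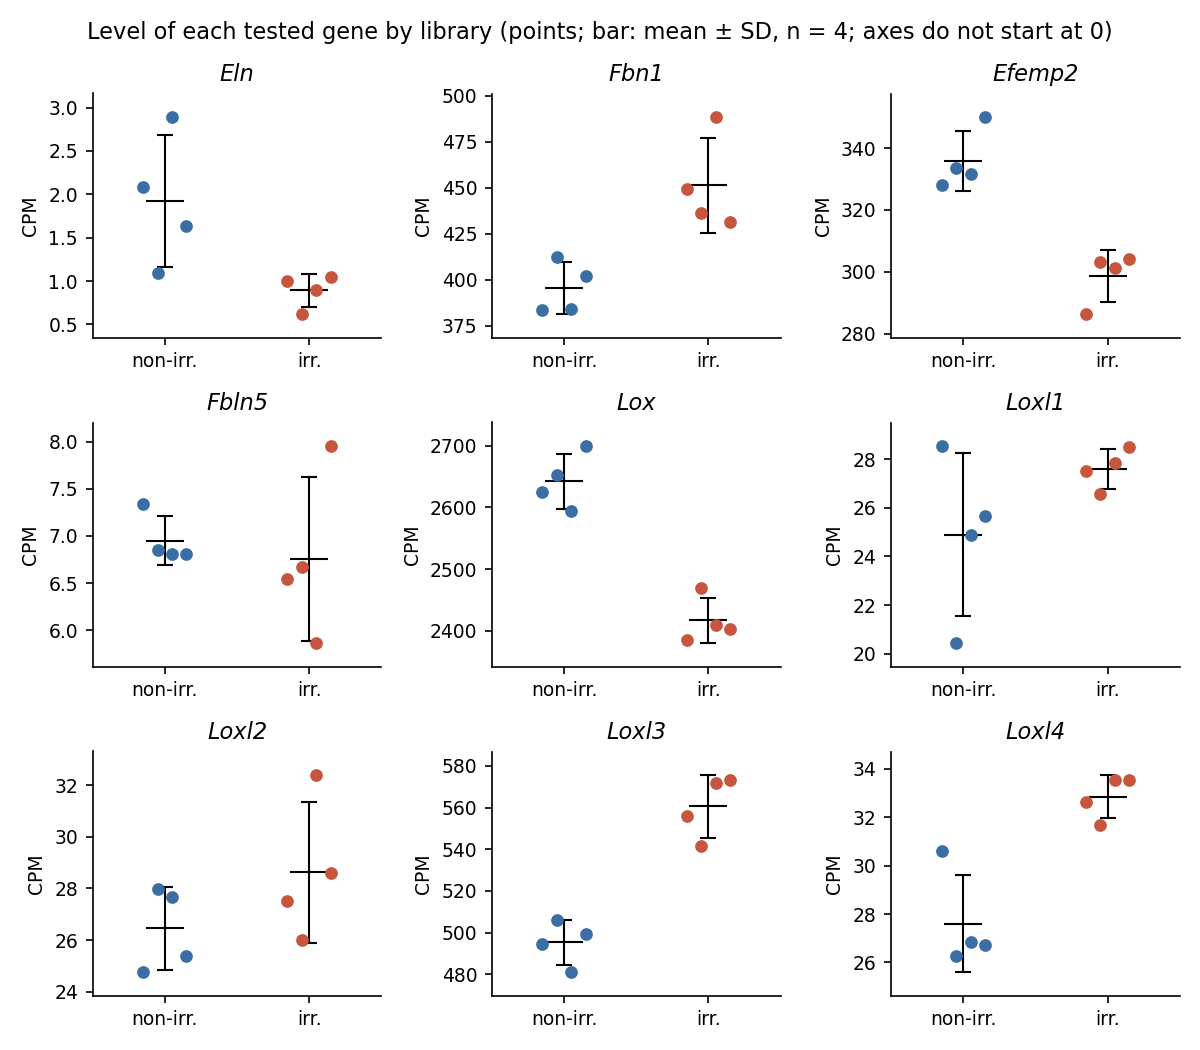
CPM of each tested member in 4 non-irradiated (blue) and 4 irradiated (red) libraries, with the mean and SD as black bars; the axes do not start at 0. Libraries of the groups are separate in Eln, Fbn1, Efemp2, Lox, Loxl3 and Loxl4 and overlap in Fbln5, Loxl1 and Loxl2.

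Eln (ENSMUSG00000029675.13) encodes tropoelastin, the soluble monomer of the fibre core. Non-irradiated libraries C5 to C8 gave 2.09, 1.09, 2.89 and 1.63 CPM, from 97, 51, 138 and 82 counts. Irradiated libraries L5 to L8 gave 1, 0.621, 0.9 and 1.04 CPM, from 48, 32, 39 and 52 counts. All irradiated libraries were lower, but C6 was only just above L8, and the non-irradiated libraries themselves spread more than 2-fold. The mean went from 1.93 ± 0.761 to 0.892 ± 0.191 CPM (SD, n = 4), which is 2.16-fold lower (edgeR log2 fold change -1.11 with SE 0.321, adjusted p = 0.0236), and 1.95% of tested genes changed by more in either direction. The call did not hold in every setting: without C7 the log2 fold change was -0.84 (adjusted p = 0.13) and without L6 -0.96 (adjusted p = 0.0645). Without C5 (-1.06, adjusted p = 0.0632), without L7 (-1.11, adjusted p = 0.0544) and with limma-voom (-1.05, adjusted p = 0.065) the fold was close to that of all libraries. Leaving out C5, L7 or C7 also lowered the number of genes called in all, to 1769, 1705 and 1672 from 2270. The number also fell without L5, L8 or C8 (1731, 1776 and 1751), where Eln stayed called (edgeR adjusted p = 0.0405, 0.0383 and 0.0365). Without L6 it was 2168, and without C6 it was 2673 (edgeR adjusted p of Eln = 0.00548). Whether smaller totals and the lost Eln calls are linked was not tested. Gm30003, whose exons overlap those of Eln on the opposite strand, had 0 counts.

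Fbn1 (ENSMUSG00000027204.14) encodes fibrillin-1, the main building block of microfibrils. Its values were 383, 413, 384 and 402 CPM in C5 to C8. In L5 to L8 they were 449, 436, 488 and 431 CPM. Every irradiated library was higher than every non-irradiated one, with L7 the highest. The mean went from 396 ± 14.3 to 451 ± 25.9 CPM (SD, n = 4), an increase of 14.1% (edgeR log2 fold change 0.19 with SE 0.038, adjusted p = 0.00153). On the opposite strand an exon of Gm9913, a predicted gene, overlaps Fbn1. Gm9913 stood at 0.691 ± 0.162 and 1.2 ± 0.307 CPM (n = 4 per group), and whether counting used strand is not given in the sources used here.

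The fibulins differed widely in level. Efemp2 (ENSMUSG00000024909.16), whose product fibulin-4 tethers lysyl oxidase to tropoelastin, gave 328, 334, 332 and 350.0 CPM in C5 to C8. It gave 286, 303, 301 and 304 CPM in L5 to L8. Each irradiated library lay below each non-irradiated one. Efemp2 fell by 11.1%, from 336 ± 9.73 to 299 ± 8.29 CPM (edgeR log2 fold change -0.17 with SE 0.032, adjusted p = 0.000872). Mus81, a nuclease gene whose exons overlap those of Efemp2 on the opposite strand, moved the other way, from 17.5 ± 0.997 to 23.7 ± 2.02 CPM (log2 fold change 0.44, adjusted p = 0.000575 by edgeR). Fbln5 (ENSMUSG00000021186.10), the fibulin that binds tropoelastin and integrins, was much lower, between 6.8 and 7.34 CPM in non-irradiated and between 5.86 and 7.95 CPM in irradiated libraries. The irradiated libraries enclosed the range of the others (log2 fold change -0.04, SE 0.128, adjusted p = 0.889). That value has no firm sign, at 0.025 without L7 and -0.13 without L8. Of the ratios between members, Efemp2 to Fbln5 differed by -0.12 on the log2 scale between groups (SE 0.097, exact permutation p = 0.286), so that unequal change of the pair was not shown. Without L8 the difference was -0.049 and without L7 it was -0.19.

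Among the lysyl oxidases the most abundant one fell and the second most abundant rose. Lox (ENSMUSG00000024529.15), the founding enzyme of the family, stood at 2624, 2652, 2593.5 and 2699 CPM in C5 to C8, and 0.0791% of tested genes had a higher mean. In L5 to L8 it stood at 2386, 2469.9, 2409.5 and 2403 CPM. No irradiated library reached the lowest non-irradiated one, C7. From 2642 ± 44.8 to 2417 ± 36.7 CPM (n = 4 per group) Lox fell by 8.53% (edgeR log2 fold change -0.13 with SE 0.023, adjusted p = 0.000675). AC161119.1, an annotated gene with an exon opposite Lox, was at 2.51 ± 0.298 and 2.46 ± 0.473 CPM.

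Loxl3 (ENSMUSG00000000693.11), which carries scavenger receptor cysteine-rich domains besides the catalytic domain, gave 494, 506, 481 and 499.5 CPM in C5 to C8. In L5 to L8 it gave 556, 541, 572 and 573 CPM. All irradiated libraries exceeded all non-irradiated ones. The mean went from 495 ± 10.6 to 560.6 ± 15 CPM, a rise of 13.2% (edgeR log2 fold change 0.18 with SE 0.029, adjusted p = 0.000204). Htra2, a mitochondrial protease gene with exons opposite those of Loxl3, rose likewise from 107 ± 4.19 to 124 ± 3.4 CPM (log2 fold change 0.21, adjusted p = 0.000817 by edgeR). Whether the pair shares reads was not tested.

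Loxl4 (ENSMUSG00000025185.15), with the same kind of domains, was scarcer and gave 30.6, 26.3, 26.8 and 26.7 CPM in C5 to C8. The irradiated values were 32.6, 31.7, 33.5 and 33.6 CPM in L5 to L8. C5 stood apart from the other non-irradiated libraries and came close to, but stayed under, the lowest irradiated library. Loxl4 rose by 19%, from 27.6 ± 2.01 to 32.9 ± 0.889 CPM (n = 4 per group; edgeR log2 fold change 0.25 with SE 0.064, adjusted p = 0.0105).

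Loxl1 (ENSMUSG00000032334.11), the family member most closely tied to elastin, and Loxl2 (ENSMUSG00000034205.17), known for its action on collagen IV, did not pass the test. Loxl1 ranged from 20.4 to 28.5 CPM in non-irradiated and from 26.5 to 28.5 CPM in irradiated libraries (edgeR log2 fold change 0.15 with SE 0.082, adjusted p = 0.257). Loxl2 ranged from 24.8 to 28 CPM and from 26 to 32.4 CPM (edgeR log2 fold change 0.11 with SE 0.074, adjusted p = 0.356). The groups overlapped in Loxl1 through C5, and in Loxl2 C6 and C7 lay among the irradiated libraries. The log2 fold change of Loxl1 was 0.066 without C6 and 0.23 without C5, and that of Loxl2 was 0.052 without L7. With these errors a change as large as that of Loxl3 could not be told from none. Exons of Gm27177 lie opposite Loxl2 and had 14.8 ± 0.749 and 14.2 ± 0.422 CPM.

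The make-up of the family shifted by a few percentage points. Lox accounted for between 81.1% and 81.6% of the summed TPM of the 5 enzymes in non-irradiated libraries and for between 77.5% and 78.9% in irradiated ones. The share of Loxl3 was between 15.7% and 16.1%, and between 18% and 19.2% after irradiation. Neither share overlapped between groups. The shares depend on the length used, a check chosen after seeing the data: with the coding length Loxl3 held 9.13% ± 0.122 and 11% ± 0.366 (SD, n = 4) and Lox 89.3% and 87.1%, again with no overlap. Loxl1, Loxl4 and Loxl2 each held at most 1.33%. The sum itself was 2264 ± 39.6 TPM in non-irradiated and 2165 ± 17.3 TPM in irradiated cells (SD, n = 4), and the lowest non-irradiated sum (2214) was above the highest irradiated one (2183). These sums and shares were not tested.

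**Figure D3:**
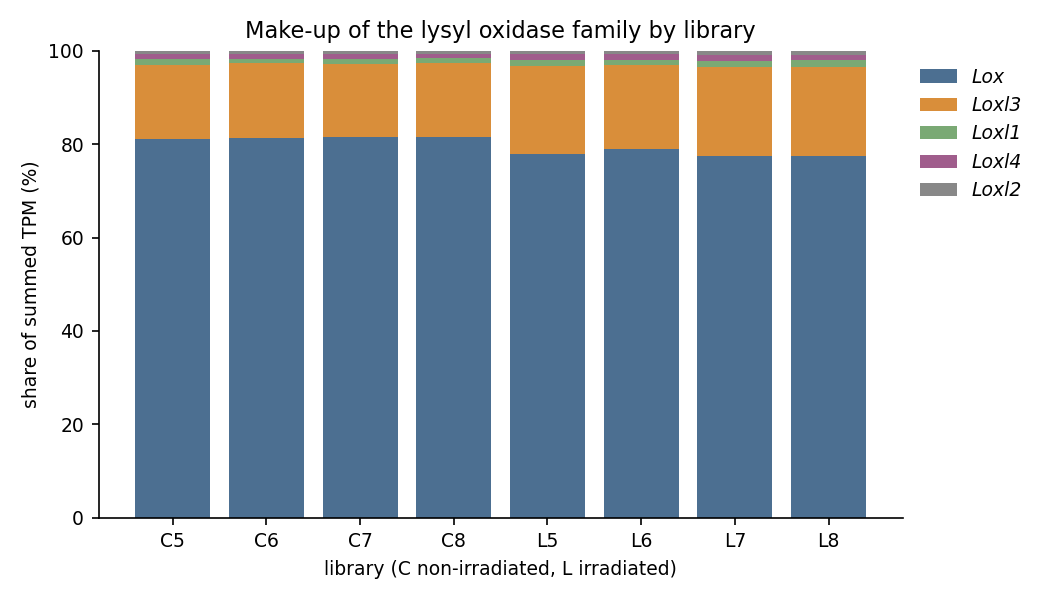
Share of each lysyl oxidase (%) in the summed TPM of the 5 genes, by library (C5 to C8 non-irradiated, L5 to L8 irradiated). The blue part, Lox, is 81.1% to 81.6% in the first 4 libraries and 77.5% to 78.9% in the last 4, and the orange part, Loxl3, is larger in the last 4.

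A ratio of 2 genes within a library does not depend on how libraries are scaled. Of such ratios 6 were tested by a two-sided exact permutation test over the libraries, for which 0.0286 is the smallest p possible with 4 against 4. The ratio of Lox to Loxl3 was at 2.41, 2.39, 2.43 and 2.43 on the log2 scale in C5 to C8 and at 2.1, 2.19, 2.07 and 2.07 in L5 to L8. That is a difference of -0.31 (SE 0.03), or 1.24-fold, with no overlap (exact p = 0.0286). Lox to Loxl4 differed by -0.38 (SE 0.062) and Eln to Fbn1 by -1.23 (SE 0.361), also with no overlap and the same exact p. In these 3 pairs the first gene was lower and the second higher in all irradiated libraries, as described above. Their separation and exact p thus follow from the values of the single genes and are no further evidence. Lox to Loxl1 and Lox to Loxl2 differed by -0.29 and -0.24 with overlapping groups (exact p = 0.0571 and 0.0857). After Benjamini-Hochberg adjustment over the 6 ratios none passed 0.05, the lowest 3 being at 0.0571. With only 3 of 6 ratios at the smallest p possible, the adjustment could give no lower value, so it cannot decide on these 3. The ratio of Fbn1 to Fbn2 could not be formed.

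Genes that work with these members were taken from 5 lists, and the largest changes among their called genes were those of Tll1 and Furin. In the list of lysyl oxidase maturation and copper supply 2 of 8 tested genes rose, 0 fell and 6 did not pass. That share of called genes was near the 21.7% among genes of 10 CPM or more. The sets are not alike, since Tll1, which was called, and Fmod, which was not, averaged less than 10 CPM. Of all tested genes 8.22% rose. The median log2 fold change was 0.12 in the list, against -0.0065 over all tested genes. Furin, the convertase that trims profibrillin, rose 1.74-fold (log2 fold change 0.8, SE 0.032), with means of 705 ± 30.5 and 1229 ± 35 CPM (n = 4 per group, edgeR adjusted p = 6.3e-12). Tll1, a tolloid-like protease of the family that activates pro-lysyl oxidase, rose 2-fold (log2 fold change 1, SE 0.132), with 4.79 ± 0.684 and 9.56 ± 0.634 CPM (adjusted p = 2.2e-05). Its relative Bmp1, the main activator of the enzyme, gave 131 ± 5.03 and 131 ± 4.12 CPM (adjusted p = 0.973), and the copper pump gene Atp7a gave 15.2 ± 2.59 and 18 ± 1.68 CPM (adjusted p = 0.158), both named after their values were seen. Tll2 and Postn, with 0 and 5 counts over all 8 libraries, were not tested.

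Partners of microfibrils went both ways, with 2 of 9 tested genes higher, 1 lower and 6 not past the test (median log2 fold change 0.003). Of all tested genes 8.22% were called higher and 6.75% lower, and 21.7% of genes of 10 CPM or more were called. Ltbp1, which anchors latent TGF-beta to fibrillin, rose 1.12-fold (568 ± 16.9 and 639 ± 3.95 CPM, edgeR adjusted p = 0.000249). Emilin2, of a family named for the interface of elastin and microfibrils, rose 1.1-fold from 239 ± 5.71 to 263 ± 8.04 CPM (adjusted p = 0.00769). Adamtsl4, a fibrillin-1 binding protein, was 1.22-fold lower, at 105 ± 3.93 and 85.9 ± 4.3 CPM (adjusted p = 0.000113). Of this list 7 genes were not tested, of which Mfap4, Mfap5 and Thsd4 had 0 counts throughout and Mfap2 had 9 counts, all in L6.

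The same shares, 8.22% higher and 6.75% lower of all tested genes and 21.7% called at 10 CPM or more, apply to the next lists. Of 5 tested further fibulins and hemicentins 0 rose, 1 fell and 4 did not pass (median log2 fold change 0.036). Hmcn2, which was not called, averaged less than 10 CPM. The gene that fell was Efemp1, or fibulin-3, a close relative of Efemp2, which was 1.14-fold lower after irradiation (633 ± 16 and 556 ± 19.3 CPM, edgeR adjusted p = 0.000216). Among elastin-degrading proteases 3 of 8 were tested, and 0 rose while Ctsk, the gene of cathepsin K, was 1.15-fold lower (65.7 ± 3.96 to 57.1 ± 3.69 CPM, adjusted p = 0.0188), with a median log2 fold change of 0.0047 in the list. The Ctsk call did not hold without C7 or L6 (adjusted p = 0.0745 and 0.0739). Mmp7 and Mmp12, the latter the macrophage elastase, had 0 counts in every library.

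Lysyl hydroxylases, which prepare collagen lysines for the oxidases, and fibrillar collagens that serve as substrates included 4 of 9 tested genes that rose, 0 that fell and 5 that did not pass, where 21.7% of genes of 10 CPM or more were called either way and 8.22% of all tested genes rose (median log2 fold change 0.044). Plod2, which hydroxylates collagen telopeptides, rose 1.12-fold from 274 ± 13.2 to 307 ± 9.11 CPM (edgeR adjusted p = 0.00397). Plod3, which also glycosylates, rose 1.13-fold from 344 ± 11.9 to 387 ± 11.1 CPM (adjusted p = 0.000913). Col11a1 rose 1.24-fold (102 ± 6.59 and 126 ± 3.59 CPM, adjusted p = 5.48e-05) and Col1a2 rose 1.19-fold (adjusted p = 0.00151), while Col1a1 and Col3a1, named after their values were seen, gave log2 fold changes of 0.036 and -0.042 (adjusted p = 0.581 and 0.356).

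**Figure D4:**
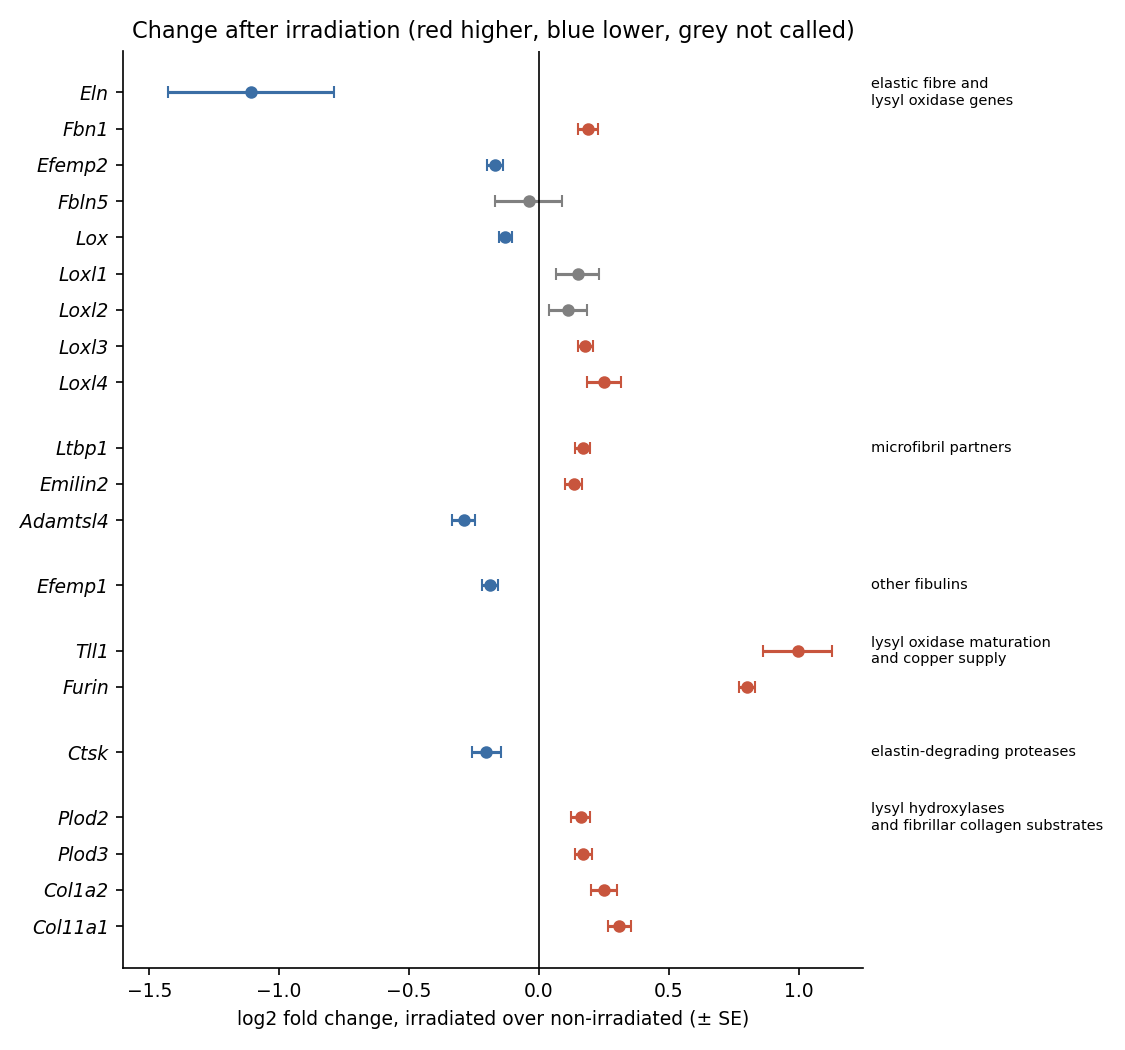
Log2 fold change (irradiated over non-irradiated, ± SE from the edgeR fit of all 8 libraries) of the tested members and of the named genes of 5 related lists; red points were called higher, blue lower and grey not called. Eln has the lowest value (-1.11) and the widest error, and Tll1 and Furin the highest (1 and 0.8).

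The profile of Eln over the 8 libraries was compared with those of 9195 genes of at least 10 CPM, as the root mean square difference between log2 CPM values, each centred on the gene's mean. The nearest were Mvk (0.373), Cyp51 (0.388) and Fdft1 (0.388). Their log2 fold changes were -0.79, -1.07 and -0.94 (SE 0.07, 0.068 and 0.065), with edgeR adjusted p-values of 3.21e-07, 8.76e-09 and 8.76e-09. Eln itself stood at -1.11 (SE 0.321), with a far wider error, and its level was below the 10 CPM set for the compared genes. Since the profiles span both groups, a fall of similar size in itself brings genes near. Likeness from library to library within a group was not tested.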

How the data were processed

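RNA-seq libraries of MLO-Y4 cells were used, 4 non-irradiated and 4 irradiated. The authors deposited whole-number estimated counts per gene, not normalized. HISAT2 2.2.1, StringTie 2.1.7 and build GRCm39 come from the submitters' processing notes, which also name Trimmomatic 0.39 and DESeq2 1.32.0. Annotation release and use of strand: not given in the sources used here. The columns are numbered 5 to 8 and titles 1 to 4, so columns were tied to groups only. Low counts scatter more than single reads would (median variance over mean 4.21 and 4.32 at means of 5 to 100 counts), which widens counting error. Symbols of 52083 identifiers and exon lengths came from GENCODE M21 (GRCm38), matched without version.

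Genes were kept by filterByExpr (minimum count 10), scaled by TMM and tested with edgeR 4.0.16 (glmQLFit, robust) in R 4.3.3 across all genes, with Benjamini-Hochberg adjustment; the script was checked on simulated counts. SE is the log2 fold change divided by the square root of F. CPM uses TMM-scaled totals. Ratios of members used a pseudocount of 0.5 and exact permutation tests (scipy 1.17.1). Members and lists were chosen with earlier results of these data known. All 10 members are named, and from each other list at most 4 called genes, by size of change, were named, with exceptions stated; for likeness to Eln, the 3 nearest genes. Alternatives were DESeq2 1.42.0, limma-voom (limma 3.58.1), other scalings and filters, counts divided by 4, the number in the column name as a block, other gene lengths (for shares of the family, chosen after seeing the data) and leaving out each library.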

Additional observations from a re-analysis of the deposited data

Results flagged for a closer look

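Of 18 member and group combinations tested for a library far from the other 3 of its group, 3 stood apart; chance gives about 1 in 20. Fbln5 in non-irradiated cells had C5 at 7.34 CPM with the others between 6.8 and 6.85 CPM. Loxl4 had the same library at 30.6 CPM with the others between 26.3 and 26.8 CPM. Efemp2 in irradiated cells had L5 at 286 CPM with the others between 301 and 304 CPM. Without C5 Loxl4 and without L5 Efemp2 were still called, and Fbln5 was not called in any alternative.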

How the results depend on the processing

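For each tested gene 17 alternatives were run. Fbn1, Efemp2, Lox, Loxl3 and Loxl4 kept their direction and their call in all 17 (log2 fold changes of 0.15 to 0.21, -0.19 to -0.15, -0.15 to -0.12, 0.16 to 0.2 and 0.23 to 0.31), and Fbln5, Loxl1 and Loxl2 were called in 0 of 17. Eln stayed lower throughout but was called in 12. Its log2 fold change was -1.05 with limma-voom (adjusted p = 0.065) and ran from -1.3 to -0.84 when single libraries were left out. Leaving out a library gave 0 to 1 lower elastin-degrading proteases (0 without C7 or L6) and 0 to 1 lower genes of lysyl oxidase maturation and copper supply (1 without C6). The latter list had 3 higher without C6, and microfibril partners had 3 higher with DESeq2, limma-voom or a filter of 1 CPM. The number of called genes lay between 1672 and 2696. Same-numbered libraries did not deviate together (correlations of -0.133 to -0.0147). Thus no pairing by number was seen, though a lack of shared deviation cannot exclude it. With the replicate block 1757 genes were called, with the same 3 members higher and 3 lower. Ratios kept their sign with each library left out, with a pseudocount of 2 and within numbers, where 0.125 is the smallest two-sided p.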
